A study of Mus musculus with 8 samples.

Results

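The miRNAs miR-99b, let-7e and miR-125a are processed from 3 hairpins that lie side by side on mouse chromosome 17. Their mature products mmu-miR-99b, mmu-let-7e and mmu-miR-125a-5p were taken as the members here, by the names and mm9 probe positions in the array files, and all 3 were found among 611 mouse miRNAs on the array. They were picked because their signal did not rise between embryonic stages together with that of miRNAs of the same seed, so every comparison of stages for the members, and of members with those relatives, is a description without a test. The question behind the arrays was which miRNAs differ between early and later basal progenitors of the cortex, the intermediate progenitors that divide away from the ventricle and give rise to neurons. Basal progenitors were isolated by FACS from the mouse cortex at embryonic day 13 (E13, 4 arrays) and embryonic day 16 (E16, 4 arrays), and 1-colour Agilent miRNA arrays were hybridised with their Cy3-labelled total RNA. Sample descriptions carry the tag WT at both stages, while strain and sorting gate were not stated in what was used here. The 4 biological replicates of a stage came from 3 litters, so some may share a litter. All spread given below is that between these samples.

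MicroRNAs are short RNAs that guide Argonaute proteins to messenger RNAs, mainly through the seed at their 5′ end, and usually lower the output of those messages. Members of a family share the seed and so share many predicted targets. The let-7 family is best known for rising during differentiation and for repressing progenitor genes such as Lin28 and Hmga2, and miR-125 is the vertebrate counterpart of the worm timing miRNA lin-4. The miR-99 family is the third partner. Vertebrate genomes hold several such groups in which a miR-99, a let-7 and a miR-125 hairpin neighbour each other.

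The member sequences below, 5′ to 3′ and from RefSeq (GRCm38.p6), have the seed, bases 2 to 8, in capitals. They are shown with the relatives on which the comparison turns, grouped by seed, because the arrays have to tell these molecules apart.
miR-99b: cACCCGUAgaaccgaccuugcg
miR-99a: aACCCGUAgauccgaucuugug
miR-100: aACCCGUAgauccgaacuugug
let-7e: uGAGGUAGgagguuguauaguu
let-7a: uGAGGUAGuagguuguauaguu
let-7b: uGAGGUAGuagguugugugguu
let-7c: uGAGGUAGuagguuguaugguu
miR-125a-5p: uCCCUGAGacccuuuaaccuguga
miR-125b-5p: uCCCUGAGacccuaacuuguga

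Seeds were identical within each family, and differences lay outside them. Counted from 1 at the 5′ end with the member's base first, let-7e differed from let-7a by G9U alone. It differed from let-7c by G9U and A19G, and from let-7b by G9U, A17G and A19G. All 8 of the other let-7 miRNAs on the array, let-7d, let-7f, let-7g, let-7i and miR-98 included, carried G9U relative to let-7e. The number of differences from let-7e ran from 1 for let-7a to 5 for let-7i. From miR-99a, miR-99b differed by C1A, A11U, C16U and C21U, and from miR-100 by C1A, A11U, C16A and C21U. The alignment of miR-125a-5p with miR-125b-5p spanned 24 bases with 3 differences, an identity of 87.5%.

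The array read each member with 2 nested DNA probes complementary to its 3′ part, the longer of which was the brighter and stood for the miRNA. The longer probes are given 5′ to 3′ with the base that the shorter probe lacks in capitals, because they set which of the differences above can be seen.
miR-99b probe: cgcaaggtcggttctA
let-7e probe: aactatacaacctcctacC
miR-125a-5p probe: tcacaggttaaagggtctC

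The miR-99b probe paired with bases 7 to 22 and was placed by the files at chr17:17967165-17967179 (mm9), leaving 3 of the 4 differences from miR-99a and from miR-100 under it. The let-7e probe paired with bases 4 to 22 at chr17:17967334-17967351 and covered the position of G9U, the single base that separates let-7e from let-7a. The miR-125a-5p probe paired with bases 6 to 24 at chr17:17967787-17967804. Every member probe had 1 place in the genome. By these positions, 154 bases lay between the probe matches of miR-99b and let-7e and 435 between those of let-7e and miR-125a-5p, and the 3 matches together spanned 640 bases. How much signal a probe takes from a relative was not measured.

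The hairpins of let-7e and miR-125a in RefSeq (GRCm38.p6) show where each mature miRNA is cut out, on the 5′ arm, marked in capitals.
let-7e hairpin: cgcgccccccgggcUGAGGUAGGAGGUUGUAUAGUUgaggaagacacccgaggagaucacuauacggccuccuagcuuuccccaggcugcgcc
miR-125a hairpin: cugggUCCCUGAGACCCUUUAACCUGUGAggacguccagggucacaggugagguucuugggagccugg

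In the RefSeq annotation of GRCm38.p6, Mir99b, Mirlet7e and Mir125a lie within the span of the protein-coding gene Spaca6, and exons and introns were not used here. Mir100, Mirlet7a-2 and Mir125b-1, the relatives of a second such group, overlap the long non-coding RNA gene Mir100hg, while Mir99a, Mirlet7c-1 and Mir125b-2 of another overlap no other gene in that table. Within 10 kb of the members the array files placed 5 miRNAs, which were the members and the opposite arms miR-99b* and miR-125a-3p.

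Brightness varied between arrays. The 75th percentile of the processed signal over the 126 mouse probes that cleared background on every array, by which each array was divided, ran from 162 to 490 units at E13 and from 109 to 748 at E16. E16 replicate 4 was the dimmest, with 76 miRNAs well above background where the other arrays had 117 to 205. Slide and stage overlapped only in part: E16 replicate 1 was alone on slide 1, both stages shared slides 2 and 3, and all E13 arrays sat in row 2 and all E16 arrays in row 1 of their slide, so row and stage cannot be told apart. Of the neural miRNAs miR-9, miR-9*, miR-124 and miR-128, all 4 cleared background on each of the 8 arrays, as the labelled tissue has it. None of 6 blood, 2 endothelial, 4 muscle, 1 liver and 4 mesenchymal marker miRNAs was so on any array. These markers tell neural tissue from other tissues and do not tell basal progenitors from other cortical cells.

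All 3 members were measured firmly on all 8 arrays. Each probe was printed on 10 spots per array, which gave 480 member spots, of which 479 were well above background and 21 carried an outlier flag and were left out of the means. Among the spots of the brighter probe the coefficient of variation within an array was 4.65% to 9.88% for miR-99b, 2.85% to 7.03% for let-7e and 3.40% to 9.0% for miR-125a-5p. The spread within an array was smaller than the spread between arrays given next.

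Before scaling, the miR-99b signal was 58.5, 145, 152 and 74.8 units in E13 replicates 1 to 4 and 126, 201, 56.3 and 32 in E16 replicates 1 to 4. The let-7e signal was 218, 624, 741 and 352 units at E13 and 794, 926, 287 and 121 at E16. The miR-125a-5p signal was 332, 820, 837 and 456 units at E13 and 611, 1081, 304 and 217 at E16. All 3 were highest on E16 replicate 2 and lowest on E16 replicate 4, the arrays with the highest and lowest scaling percentile. The stages overlapped for each member on this unscaled signal.

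miR-99b, the miR-99 family member of the cluster, had a log2 scaled signal (0 is the 75th percentile of its array) of -1.47, -1.13, -1.69 and -1.97 at E13 and of -2.27, -1.90, -2.32 and -1.76 at E16. The E13 arrays were mostly the higher ones, but E13 replicate 4 lay below E16 replicates 2 and 4, so the stages overlapped. Stage means were -1.57 ± 0.36 (SD, n = 4) at E13 and -2.06 ± 0.27 (SD, n = 4) at E16, a difference, E16 minus E13, of -0.50 with a standard error (SE) of 0.22, or 1.41-fold.

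let-7e, the let-7 family member, had a log2 scaled signal of 0.43, 0.98, 0.60 and 0.26 at E13 and of 0.38, 0.31, 0.02 and 0.16 at E16. E13 replicate 2 was the highest of the 8 and E16 replicate 3 the lowest, and E13 replicate 4 lay below E16 replicates 1 and 2. Stage means were 0.57 ± 0.31 (SD, n = 4) at E13 and 0.22 ± 0.16 (SD, n = 4) at E16, a difference of -0.35 with an SE of 0.19, or 1.27-fold.

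miR-125a-5p, the lin-4 related member, had a log2 scaled signal of 1.03, 1.37, 0.77 and 0.63 at E13 and of 0.01, 0.53, 0.11 and 0.996 at E16. E16 replicate 4, the dimmest array, was among the E13 values, and the other 3 E16 arrays were below every E13 array. Stage means were 0.95 ± 0.33 (SD, n = 4) at E13 and 0.41 ± 0.45 (SD, n = 4) at E16, a difference of -0.54 with an SE of 0.26, or 1.46-fold. Without E16 replicate 4 the 3 differences were -0.60 for miR-99b, -0.33 for let-7e and -0.74 for miR-125a-5p.

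**Figure D1:**
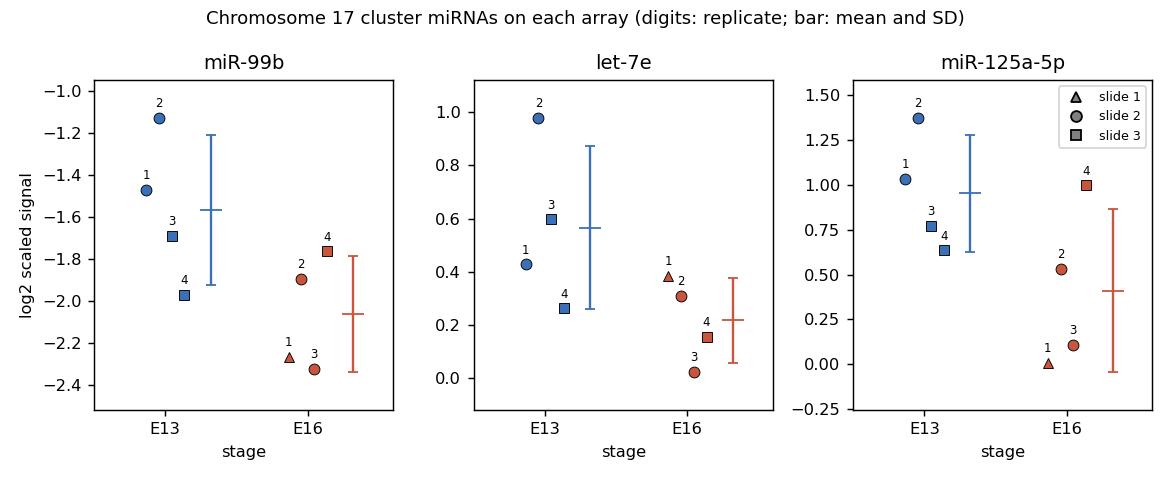
Log2 scaled signal (vertical axis, 0 is the array's 75th percentile) of miR-99b, let-7e and miR-125a-5p at E13 and E16. Points are arrays numbered by replicate and shaped by slide, and bars are the mean and SD of 4 arrays; the stages overlap in each panel, with means of -1.57 and -2.06, 0.57 and 0.22, and 0.95 and 0.41, and the differences change sign when arrays are scaled over all mouse probes.

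The sign of these differences depended on how arrays were set to a common scale. With the percentile taken over all mouse probes, where the divisor is only 0.486 to 4.36 signal units and close to background, the differences were 0.32 for miR-99b, 0.47 for let-7e and 0.28 for miR-125a-5p. The median over all 153 tested miRNAs moved with them, from -0.40 to 0.42, so that the members stayed near it: from the highest difference down, let-7e ranked 72, miR-99b 94 and miR-125a-5p 97 of 153. Within slide 2, which holds E13 replicates 1 and 2 and E16 replicates 2 and 3, the differences were -0.81 for miR-99b, -0.54 for let-7e and -0.88 for miR-125a-5p. Within slide 3, which holds E13 replicates 3 and 4 and E16 replicate 4, they were 0.07, -0.27 and 0.29 in the same order. With slide as a block they were -0.46, -0.43 and -0.41. The median over all tested miRNAs was -0.28 within slide 2 and -0.76 within slide 3. The members therefore lay below it on slide 2 and above it on slide 3.

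In limma's fit over the 153 tested miRNAs, with Benjamini-Hochberg adjusted p below 0.05 as the threshold, 33.3% were called in either direction, 7.19% higher and 26.1% lower at E16. None of the 3 members was called in either direction, and none had stages without overlap, which 38.6% of tested miRNAs had. Because the members were picked on this contrast, nothing is read from those counts.

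The relatives are 12 miRNAs on the array that share a seed with a member, and 11 could be tested, since miR-351 was well above background on no array. Of the 11, 7 passed as higher at E16, none as lower and 4 did not pass, beside the 7.19% called higher overall. The members were picked for not rising with these relatives, so a rise of the relatives was part of that choice. Their calls are therefore a description and not read as support. let-7b had the largest difference of them at 2.66 (SE 0.28), followed by miR-100 at 1.75 (SE 0.17), let-7c at 1.57 (SE 0.25), miR-99a at 1.53 (SE 0.16) and miR-125b-5p at 1.04 (SE 0.17). Also higher were let-7a at 0.85 (SE 0.22) and let-7f at 0.72 (SE 0.23). Their calls were less firm: that of let-7f was lost under 13 of 24 alternatives, among them the slide block, the replicate block and 6 of the 8 fits without 1 array, and that of let-7a under 6. The call of miR-125b-5p was lost under 3, with differences of 0.43 to 0.81, and that of let-7c under 1. The 4 that did not pass were let-7d with 0.49, let-7i with 0.46, miR-98 with 0.41 and let-7g with 0.14.

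The members' differences were below those of every relative tested in their own family. For let-7e, at -0.35, the 8 other let-7 miRNAs had a median of 0.61 and a range of 0.14 to 2.66. For miR-99b, at -0.50, the miR-99a and miR-100 median was 1.64. For miR-125a-5p, at -0.54, miR-125b-5p had 1.04. The median over the 3 members was -0.50 and that over the 11 relatives 0.85, beside -0.40 over all tested miRNAs. Scaled over all mouse probes, all 11 relatives passed as higher, with a median of 1.67. Under that scaling 47 of all 153 tested miRNAs passed as higher, with a median over all tested of 0.42. Quantile normalization left 8 relatives called, where 20 of 153 passed as higher, with let-7d and miR-98 gained. There miR-125b-5p, the only tested relative of miR-125a-5p, was lost at 0.43. Normexp background correction left 5, without let-7a and let-7f, where only 5 of 153 passed as higher. No member was called under these settings. Nothing is read from that or from the counts of relatives, because the members were picked on this contrast against their relatives.

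**Figure D2:**
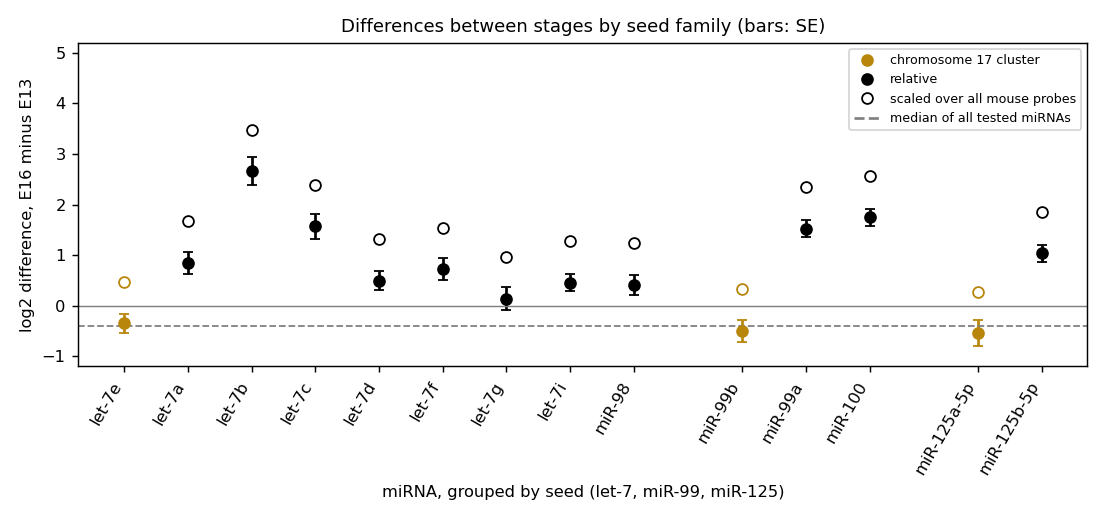
Log2 difference, E16 minus E13 (vertical axis), of each tested miRNA of the 3 seed families (horizontal axis), with SE bars for the scaling used in the text and open circles for scaling over all mouse probes. Filled gold points are the cluster members at -0.35, -0.50 and -0.54 and black points the relatives at 0.14 to 2.66; the dashed line is the median of all 153 tested miRNAs at -0.40, and under the other scaling the members lie at 0.28 to 0.47.

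A ratio of 2 miRNAs on the same array does not depend on the array's scaling factor. The log2 ratio of each member to its relatives was therefore taken on every array and centred on its E13 mean, so that the values below are changes and not levels. For miR-99b against the mean of miR-99a and miR-100 the E13 arrays gave 0.23, 0.33, -0.22 and -0.34, and the E16 arrays -2.35, -2.12, -2.55 and -1.51. Every E16 array lay more than 1 log2 unit below every E13 array, with E16 replicate 4 the nearest. The change was -2.13 (SD 0.33 at E13 and 0.45 at E16, n = 4 each), or 4.39-fold, with -2.02 against miR-99a alone and -2.24 against miR-100 alone.

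For let-7e against the mean of the 8 other let-7 miRNAs the E13 arrays gave 0.21, 0.07, -0.11 and -0.17, and the E16 arrays -1.36, -1.16, -1.26 and -1.27. Of the 3 member ratios this had the tightest E16 values, with an SD of 0.09 (n = 4) against 0.17 (n = 4) at E13. It alone was taken against a mean of 8 relatives, and averaging narrows the spread. Against single let-7 relatives the SD at E16 ran from 0.11 for let-7a to 0.33 for let-7b. The change was -1.26, or 2.40-fold. Against single relatives it was -3.01 for let-7b, -1.92 for let-7c, -1.19 for let-7a, -1.07 for let-7f, -0.84 for let-7d, -0.81 for let-7i and -0.76 for miR-98, none with overlapping stages. Against let-7g it was -0.49 and the stages overlapped, with E16 replicate 4 at -0.09 within the E13 range. miR-98 was well above background on only 6 of the 8 arrays. The change in the let-7e to miR-98 ratio ran from -1.33 to -0.32 over the alternatives. let-7a is the relative that differs from let-7e by the single base G9U, and the let-7e to let-7a ratio separated the stages on all arrays, at -0.10 to 0.11 at E13 and -1.31 to -1.08 at E16.

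For miR-125a-5p against miR-125b-5p the E13 arrays gave 0.06, 0.17, -0.11 and -0.13, and the E16 arrays -1.82, -1.58, -1.73 and -1.197. All E16 values were below all E13 values, and E16 replicate 4 was again the nearest to them. The change was -1.58 (SD 0.14 at E13 and 0.28 at E16, n = 4 each), or 2.99-fold. The mean of the 3 members against the mean of miR-99a, miR-100, miR-125b-5p, let-7a and let-7c, which the other 2 groups encode (let-7a and let-7c also match a second place in the genome), gave a change of -1.81 (SD 0.17 and 0.24, n = 4 each), with E16 arrays at -2.02, -1.75, -1.97 and -1.49.

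Of the 11 ratios of a member to a single relative, 10 had no overlap between stages, beside 32.8% of the 2775 ratios among the 75 miRNAs that cleared background throughout. This contrast also chose the members, and the share is given only as background. miR-98, whose ratio is among the 10, is not one of those 75. Without E16 replicate 4 the changes were -2.34 for miR-99b, -1.26 for let-7e and -1.71 for miR-125a-5p. Within slide 2 they were -2.62, -1.35 and -1.77, and within slide 3 -1.23, -1.13 and -1.08 in the same order, so these 3 had the same direction on both slides while the sizes for miR-99b and miR-125a-5p were smaller on slide 3, whose only E16 array is replicate 4. The single ratio of let-7e to let-7g turned to 0.11 within slide 3. In bulk RNA of sorted cells, fewer cells of a type and less RNA per cell cannot be told apart.

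**Figure D3:**
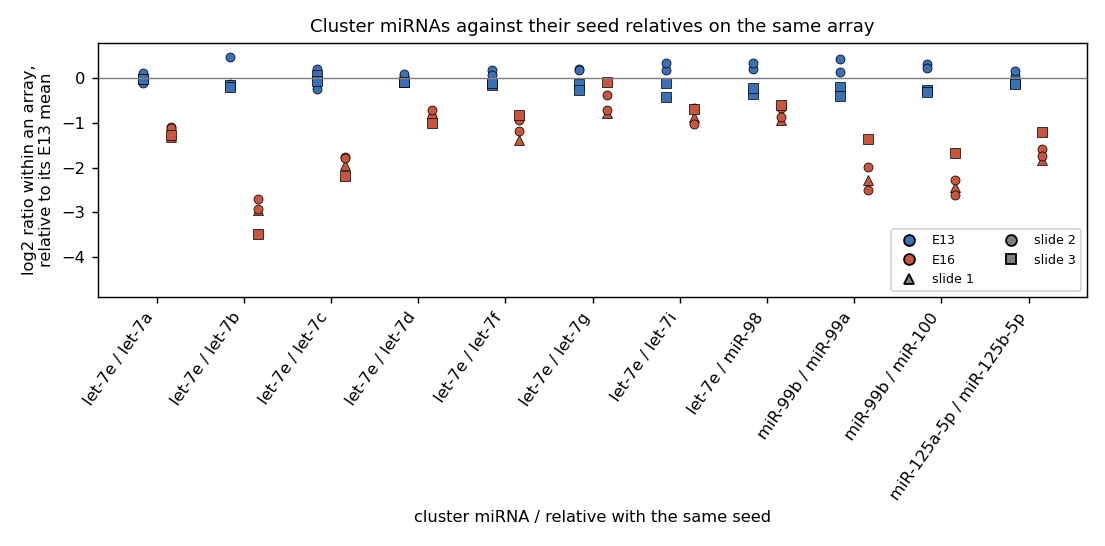
Log2 ratio of a cluster member to a relative with the same seed on the same array, centred on the E13 mean of that ratio (vertical axis), for the 11 pairs on the horizontal axis. Points are arrays coloured by stage and shaped by slide; in 10 of 11 pairs all E16 arrays lie below all E13 arrays, with mean changes from -3.01 for let-7e to let-7b down in size to -0.49 for let-7e to let-7g, where the stages overlap.

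The mean changes of the members relative to each other were small. All 3 were picked for not rising between stages, which favours small changes between them, so these values are a description. The change in the let-7e to miR-99b ratio between stages was 0.15 (SD 0.17 at E13 and 0.30 at E16, n = 4 each), that in let-7e to miR-125a-5p 0.19 (SD 0.18 and 0.50, n = 4 each) and that in miR-125a-5p to miR-99b -0.05 (SD 0.06 and 0.21, n = 4 each). Each was smaller than the SD at E16, and the stages overlapped in all 3, so the mean changes are imprecise. The ratio of let-7e to miR-125a-5p, centred on its E13 mean, was 0.76 on E16 replicate 1 and -0.45 on E16 replicate 4. On single arrays the ratio of miR-125a-5p to miR-99b was the steadiest, within -0.06 to 0.09 over the E13 arrays.

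With the stage means subtracted, which removes the contrast that chose the members, the deviations of miR-99b and miR-125a-5p over the 8 arrays had a Pearson r of 0.93 and a Spearman rho of 0.90. Leaving out the 2 arrays farthest from the median of miR-99b gave 0.96. The r was above that of 95.3% of the 2775 pairs of miRNAs, whose median was 0.125. let-7e followed them less: r was 0.64 (rho 0.64) with miR-99b and 0.38 (rho 0.29) with miR-125a-5p, and without the 2 farthest arrays -0.03 and -0.21, so both rest on those arrays. The arrays share 1 scaling factor for all miRNAs and 8 values allow only a description. E13 replicate 2 was above and E13 replicate 4 below the stage mean for all 3 members. On E13 replicate 3 and E16 replicate 1 let-7e was above its mean and the other members below theirs. The reverse held on E13 replicate 1 and E16 replicate 4.

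**Figure D4:**
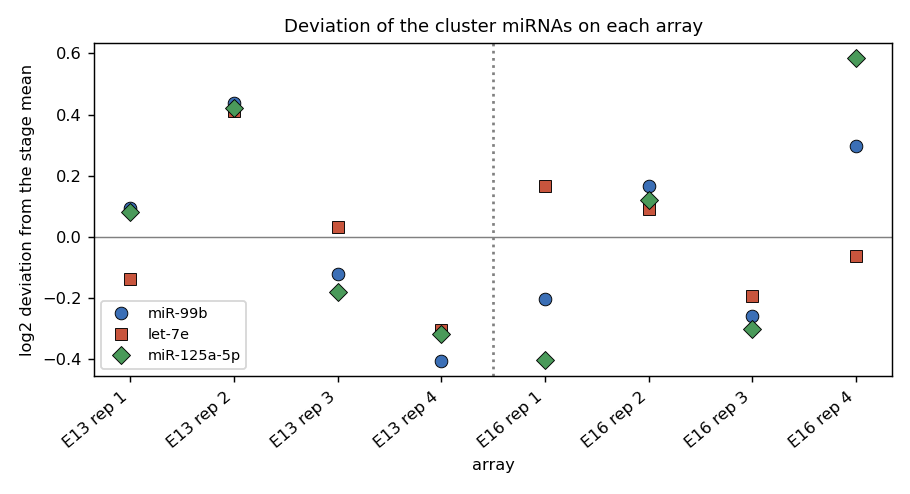
Deviation of the log2 scaled signal from its stage mean (vertical axis) for miR-99b, let-7e and miR-125a-5p on each of the 8 arrays (horizontal axis), with the dotted line between stages. miR-99b and miR-125a-5p move together (r = 0.93), and let-7e has the opposite sign to both on E13 replicates 1 and 3 and E16 replicates 1 and 4.

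Likeness over all 8 arrays, stage difference included, was taken as Pearson r with each of the 74 other miRNAs well above background throughout. For miR-99b the nearest were miR-125a-5p (0.96), miR-92a (0.94), a member of the miR-17-92 cluster, and miR-296-5p (0.84), with let-7e at rank 6 (0.79). For miR-125a-5p they were miR-99b (0.96), miR-92a (0.91) and miR-149 (0.90), with let-7e at rank 15 (0.62). For let-7e they were miR-342-3p (0.85), miR-652 (0.82) and miR-99b (0.79), with miR-125a-5p at rank 10. This ranking includes the stage difference that chose the members. With stage means subtracted, miR-92a was nearer to both, with r of 0.98 with miR-99b and 0.95 with miR-125a-5p against 0.93 between these neighbours. In the ranking, let-7e had miR-342-3p and miR-652, from elsewhere in the genome, ahead of its neighbours. The stage differences of these others were -0.66 for miR-92a, -0.41 for miR-296-5p, -0.40 for miR-149, -0.83 for miR-342-3p and -0.35 for miR-652.

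The opposite arms of the hairpins, which are usually degraded once the mature strand is loaded, were close to background. miR-99b* was well above background on 1 E13 array and on no E16 array, with a signal of 0.826 to 10.9 units over the 8 arrays. miR-125a-3p was so on 1 array of each stage, with a signal of 3.02 to 12.1 units. No probe for let-7e* was listed in the array files used here. With both arms near background no change between stages could be measured for them. Of 9 opposite arms of the relatives, 1 was well above background on all arrays and 2 on at least 1.

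The shorter probe of each member gave a second reading of the same RNA, with differences of -0.58 for miR-99b, -0.53 for let-7e and -0.69 for miR-125a-5p. For let-7e the stages did not overlap on the shorter probe, at -1.40 to -0.60 at E13 and -1.77 to -1.497 at E16, although they did on the longer one. For miR-99b the log2 ratio of the longer to the shorter probe was 1.39, 1.33, 1.303 and 1.32 at E13 and 1.65, 1.34, 1.35 and 1.33 at E16. The pair was constant on every array but E16 replicate 1, where the ratio was higher.

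For miR-125a-5p the log2 ratio of the longer to the shorter probe was 2.23, 2.32, 2.35 and 2.40 at E13 and 3.21, 2.29, 2.28 and 2.10 at E16. E16 replicate 1 again stood apart: the longer probe was 9.24 times as bright as the shorter one there, against 4.29 to 4.88 times on the other E16 arrays and 4.69 to 5.27 times at E13. For let-7e the ratio was 1.63, 1.58, 1.80 and 1.66 at E13 and 1.88, 1.85, 1.80 and 1.88 at E16, with E13 replicate 3 and E16 replicate 3 level with each other and no single array apart. Over 49 miRNAs with a nested pair of measured probes, E16 replicate 1 had the highest ratio in 22, the next array in 9, with a median deviation of 0.04 and a range of -0.64 to 1.18. The part of that array's slide in the 2 high ratios was not tested. Without E16 replicate 1, the differences on the longer probe were -0.43 for miR-99b, -0.40 for let-7e and -0.41 for miR-125a-5p.

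**Figure D5:**
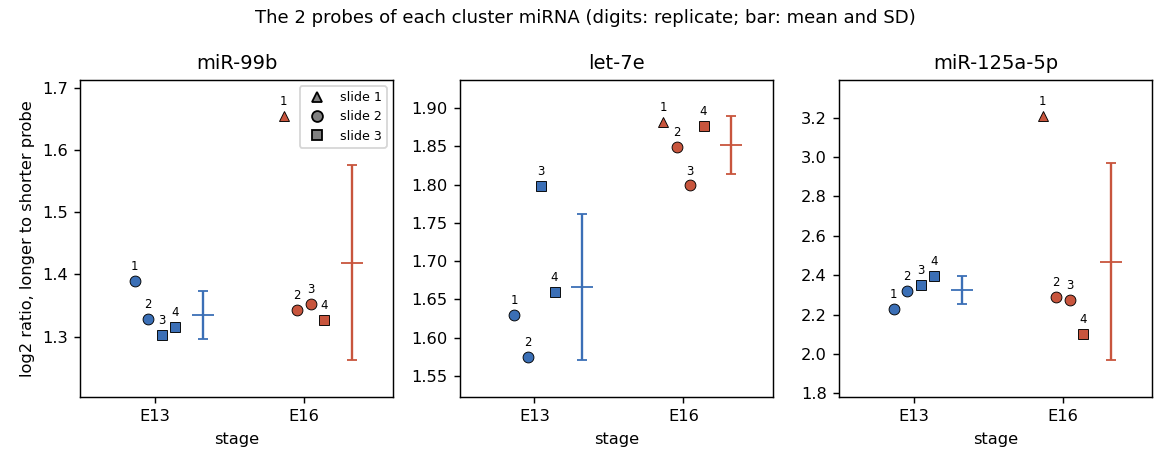
Log2 ratio of the longer to the shorter probe of each cluster miRNA (vertical axis) at E13 and E16, with arrays numbered by replicate and shaped by slide and bars for the mean and SD of 4 arrays. E16 replicate 1 lies at 1.65 for miR-99b and 3.21 for miR-125a-5p, apart from the other arrays, while for let-7e all 4 E16 arrays lie at 1.80 or above.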

How the data were processed

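Total RNA of sorted basal progenitors was labelled with Cy3 and hybridised to 1-colour Agilent arrays, per the labels' protocols, and stage and replicate were taken from sample titles. Agilent Feature Extraction 10.7.3.1 produced the scanner files, per the file headers and the submitters' processing notes, with probes placed on mm9. The deposited files give a background-subtracted processed intensity per spot, not scaled between arrays, and other columns with flags of 0 or 1. The authors also deposited a value table, read as log2 of normalized spot signals (1187 spots, 86 miRNAs, median 6.90 in every column) because each column ranked spots as its array's processed signal did. How it was normalized is not stated in the labels or headers, and it served as an alternative.

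Control and outlier-flagged spots were left out and spots of a probe averaged, over 1759 mouse probes. Each array was divided by its 75th percentile over the 126 probes well above background on all arrays, floored (log2 -5.96) and put on the log2 scale. The brightest probe stood for its miRNA. The 153 miRNAs well above background on at least 4 of 8 arrays were fitted with limma 3.58.1 in R 4.3.3 (two-sided, Benjamini-Hochberg, threshold 0.05), after tests on simulated data. Differences and SEs of members come from that fit, and members carry no p. Depth has no counterpart on arrays, whose number, 4 per stage, limits the precision. Members, relatives and lists were chosen with earlier results of these data known. The text names the members, their opposite arms, the other miRNAs of the 3 seed families, miRNAs within 10 kb, the 3 most alike miRNAs per member and any of these with an outlying array. Alternatives covered scaling, background correction, signal column, probe, filter, floor, flags, slide, replicate block and leaving out each array.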

Additional observations from a re-analysis of the deposited data

Results flagged for a closer look

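In a group of 4 arrays, an array was listed where its gap to the nearest of the others exceeded Dixon's critical share of the group's range. Chance gives about 1 such array in 20 groups, and 5 were found in 74. For the members, the log2 ratio of the longer to the shorter probe on E16 replicate 1 was 1.65 for miR-99b, against 1.33 to 1.35 on the other E16 arrays. On the same array the ratio for miR-125a-5p was 3.21, against 2.10 to 2.29 on the others. The log2 ratio of let-7e to let-7b, centred on its E13 mean, was 0.47 on E13 replicate 1 and -0.19 to -0.13 on the other E13 arrays. Among relatives, the log2 scaled signal of let-7d on E16 replicate 3 was -0.48, against -0.04 to -0.02, and that of let-7i on E13 replicate 1 was -0.39, against 0.01 to 0.07.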

How the results depend on the processing

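Scaling over all mouse probes changed the sign of the members' own differences, to 0.32 for miR-99b, 0.47 for let-7e and 0.28 for miR-125a-5p. On the scaling used in the text, but within slide 3 only, they were 0.067 for miR-99b, -0.27 for let-7e and 0.29 for miR-125a-5p. Under the alternatives that leave out 1 array they ranged from -0.63 to -0.35, from -0.45 to -0.21 and from -0.74 to -0.40 in the same order. The 4 averaged or paired ratios to relatives kept their direction under every alternative run for them. The 11 ratios to single relatives, set against the same alternatives after the data were seen, were below 0 in 261 of 262 values. The exception was let-7e to let-7g within slide 3 at 0.11. Part of these values could not differ from the main ones: dividing an array by another factor and the replicate block leave such ratios unchanged. The same contrast chose the members, so the count is not read as support. Against miR-125b-5p, miR-125a-5p gave -1.16 after quantile normalization and -1.08 within slide 3. With normexp, let-7e against the other let-7 miRNAs gave -1.04, miR-99b against miR-99a and miR-100 -1.52 and the cluster mean -1.497. The miR-99b ratio was -2.62 within slide 2 and -1.23 within slide 3, where the cluster mean was -1.35. With 1 array left out the ratios ranged from -1.32 to -1.19 for let-7e, -2.34 to -1.99 for miR-99b, -1.71 to -1.5004 for miR-125a-5p and -1.91 to -1.74 for the cluster mean.

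The count of called miRNAs was 51 (11 higher, 40 lower). It was 7 with normexp (5 higher, 2 lower), 27 with the total signal per miRNA (8 and 19), 26 on the dimmer probe (7 and 19), 24 of 86 in the deposited table (13 and 11), 19 of 75 with a filter on all 8 arrays (9 and 10), 82 of 211 with a filter on at least 1 array (14 and 68), 102 within slide 3 (14 and 88) and 38 to 71 with 1 array left out. The split turned to 47 higher and 16 lower when scaled over all mouse probes and was 20 and 27 after quantile normalization. The difference of let-7g changed sign with without E16 replicate 1 (-0.0093), with a slide block (-0.028) and on slide 3 alone (-0.38). The median within-stage correlation of the members, 0.64, was 0.83 when scaled over all mouse probes, 0.75 with median centring, 0.74 with quantile normalization, 0.44 with normexp and 0.28 to 0.82 with 1 array left out. The cause of these shifts was not tested.

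Deviations of same-numbered arrays of the stages had correlations of -0.10, 0.07, 0.27 and -0.15. With 4 arrays a stage, these values cannot decide whether replicate numbers pair the samples. With the replicate block, 45 miRNAs were called, and the members' differences remained at -0.50, -0.35 and -0.54, as a balanced block leaves them.

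On the longer probe the members' own differences were 0.35 to 0.54 in size, and the stages, with 4 arrays each, overlapped for each member. On the shorter probe of let-7e the stages did not overlap. The opposite arms were too near background to be measured.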

Other observations

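On the deposited value table, which holds only miRNAs well above background, their differences were -0.34 for miR-99b, -0.42 for let-7e and -0.69 for miR-125a-5p. With the total signal per miRNA that the scanner software computes they were -0.39, -0.26 and -0.43. The ratios to relatives in that deposited table were -2.02 for miR-99b, -1.34 for let-7e and -1.45 for miR-125a-5p. The let-7e ratio there leaves out miR-98, which had no value in it. On the scaling used in the text, the let-7e ratio without miR-98 was -1.33.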
